A study of Mus musculus with 10 samples.

Results

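The genes described here are 43 mouse type I interferon stimulated genes, listed by symbol and measured in macrophages sorted from drug-resistant melanomas. They were picked by name from a list of classical interferon-induced genes and not by their level, but with earlier results of these data known. All 43 were found among the 55359 gene identifiers counted. All 43 were also among the 14374 genes with enough counts to be tested. Bulk RNA-seq was made from F4/80+ macrophages that were sorted from Braf-mutant melanomas of male mice given Braf and Mek inhibitors every day until the tumours had become resistant. Control mice carried the RFP reporter allele of Ccr2 on 1 chromosome (Ccr2RFP/+), so that they kept 1 working copy, and Ccr2 knockout mice carried it on both (Ccr2RFP/RFP), which removes the chemokine receptor that inflammatory monocytes use to leave the bone marrow. Both groups therefore carried the reporter and both were on the drugs, so neither is an untreated or a fully wild-type group, and the age of the mice is not given in the sources used here. There were 5 libraries per genotype, numbered 1 to 5 as in their titles, and the labels do not say that they came from separate animals. The p-values below therefore measure only the spread between these samples, which may be technical.

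Type I interferons are cytokines made when a cell senses foreign or misplaced nucleic acid, and they act back on the same and neighbouring cells. They bind the receptor chains Ifnar1 and Ifnar2, the kinases Jak1 and Tyk2 then act, and the complex ISGF3, which contains Stat2 and Irf9, binds the interferon-stimulated response element (ISRE) in front of its target genes. Macrophages are strong responders, and their interferon-stimulated genes include effectors that block viruses, sensors that detect nucleic acid, transcription factors that feed the response forward and enzymes that shut it off.

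Letters that match the response element stand just upstream of many members, and the stretches below are shown because ISGF3 is known to act through this element and the members' values moved together. Of the 43 members, 33 were matched by symbol in a RefSeq table of start sites (GRCm38.p6), and the 250 bases before each start were searched on both strands for TTTCNNTTTC, which reads GAAANNGAAA on the other strand. It was found in 17 of the 33 members (51.5%) and in 3.46% of all 27025 genes in that table, overlapping matches included. Not all of the 17 are shown, and the stretches of Ifi207, Ifi211, Oas3, Rsad2, Slfn5, Slfn8, Stat2 and Trim30a are left out. Capitals mark the matches, and each sequence runs 5′ to 3′ on the strand of its gene.
Ifit1, chr19:34640765-34640833, plus strand: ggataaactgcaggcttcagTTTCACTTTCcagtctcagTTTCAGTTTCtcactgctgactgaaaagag
Ifit3, chr19:34583353-34583436, plus strand: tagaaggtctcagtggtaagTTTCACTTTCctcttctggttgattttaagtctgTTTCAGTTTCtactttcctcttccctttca
Ifit3b, chr19:34607749-34607832, plus strand: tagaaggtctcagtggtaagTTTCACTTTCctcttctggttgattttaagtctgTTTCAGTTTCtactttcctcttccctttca
Isg15, chr4:156200855-156200916, minus strand: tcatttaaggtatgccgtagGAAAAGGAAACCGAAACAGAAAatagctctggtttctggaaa
Oas1a, chr5:120907526-120907565, minus strand: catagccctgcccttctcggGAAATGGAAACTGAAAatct
Oas1g, chr5:120887614-120887651, minus strand: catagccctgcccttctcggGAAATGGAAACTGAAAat
Ifi213, chr1:173599316-173599365, minus strand: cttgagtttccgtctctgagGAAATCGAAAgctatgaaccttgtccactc
Bst2, chr8:71537567-71537622, minus strand: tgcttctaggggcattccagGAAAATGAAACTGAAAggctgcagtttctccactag
Ddx60, chr8:61928014-61928086, plus strand: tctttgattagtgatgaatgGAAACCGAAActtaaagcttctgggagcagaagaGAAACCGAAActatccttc
Ifit3 and its near copy Ifit3b shared all 84 of the 84 bases shown, with 2 matches each, and Oas1a and Oas1g shared all 38 bases that could be set side by side. Isg15 held 3 matches that overlap each other. A second motif, TTCNNNGAA, known as the gamma-activated site, was found in 6 of the 33 members (18.2%) and in 8.13% of all genes. Ifi209, Irf7, Isg20, Ifitm3, Ifi44 and Oasl2 held no match to the first motif in this window. The 17 members with a match had a median log2 fold change of -0.59 in Ccr2 knockout against control macrophages, and the 16 with none had a median of -0.56. A match to these letters is a description of the sequence and not a measured binding site.

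The 10 libraries held between 34639808 and 43360206 counts in genes. Ccr2 itself separated the genotypes, at 59.05, 89.6, 142, 130.0 and 177 CPM (counts scaled to a common library size) in controls 1 to 5 and 3.23, 6.28, 4.33, 3.64 and 6.13 CPM in knockouts 1 to 5 (log2 fold change -4.66, standard error, SE, 0.33, edgeR adjusted p = 0.000139). Adgre1, which encodes F4/80, was at 1704 to 1981 CPM in control and 1562 to 2020.2 CPM in knockout libraries. The counts of controls 1 and 2 were close to each other, and so were those of controls 3 and 4 (median chi-square per gene of 2.75 and 2.66, against 5.71 for the next closest pair, control 3 with knockout 2). They differed by more than counting noise and were kept as separate libraries, and the counts with each pair summed are given in the closing part. Reads assigned to no gene were 5.68% and 5.20% of reads in knockouts 1 and 3, 3.63% to 3.89% in knockouts 2, 4 and 5, and 4.05% to 5.43% in controls. Knockouts 1 and 3 also had the lowest mean log2 CPM over the members, 4.73 and 5.26. Knockout 4 came next at 5.79 and had the smallest share of reads in no gene, 3.63%. The part of that share in the results below was not tested.

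No member passed the test. With edgeR's quasi-likelihood test and Benjamini-Hochberg adjustment over all 14374 genes at a threshold of 0.05, 0 of 43 members were lower and 0 were higher in Ccr2 knockout macrophages. Of all genes tested, 0.543% passed as lower and 0.870% as higher. At an unadjusted p under 0.05, 8 members (18.6%) were lower and 0 higher, against 7.28% of all genes lower. DESeq2 passed 2 members and limma-voom with sample quality weights passed 1, Ifi209 in both and Isg20 in DESeq2 alone. The estimated log2 fold change was negative for 40 of 43 members, where 50.5% of all genes were negative, and its median over the members was -0.59, beside -0.0034 over all genes. In 0 members were all knockout libraries below all control libraries, a separation that 2.02% of all genes showed. Since the members moved together, as described below, these counts are not 43 separate observations. The members were also chosen with earlier results of these data known. Without knockout 2, 27 members were lower at an unadjusted p under 0.05, and without control 3, control 4, knockout 3 or knockout 4 the number was 2. The share of all genes at that p was not counted in these fits, so these numbers have no background beside them. In each of the 10 fits that left out 1 library, 0 members passed the threshold, and the smallest adjusted p among them was 0.0530.

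The members varied as a block from library to library, and the knockout libraries were spread more widely than the controls. The mean log2 CPM over all members, called the score here, was 6.33, 6.59, 6.91, 6.96 and 5.98 in controls 1 to 5, and 4.73, 6.75, 5.26, 5.79 and 6.54 in knockouts 1 to 5. Knockouts 1, 3 and 4 lay below every control, while knockouts 2 and 5 lay inside the control range. The group means were 6.56 ± 0.41 in control and 5.82 ± 0.85 in knockout (SD, n = 5 each), a difference of -0.74 that was not tested. The SD describes the spread of single libraries and is not the error of this difference. Without knockout 1 the difference was -0.47 and without knockout 2 it was -0.96. Summed over the members, the counts came to 4029 to 7416 CPM in control and 1792 to 6523 CPM in knockout libraries. These are bulk samples, in which fewer cells that make a transcript and less transcript per cell cannot be told apart.

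**Figure D1:**
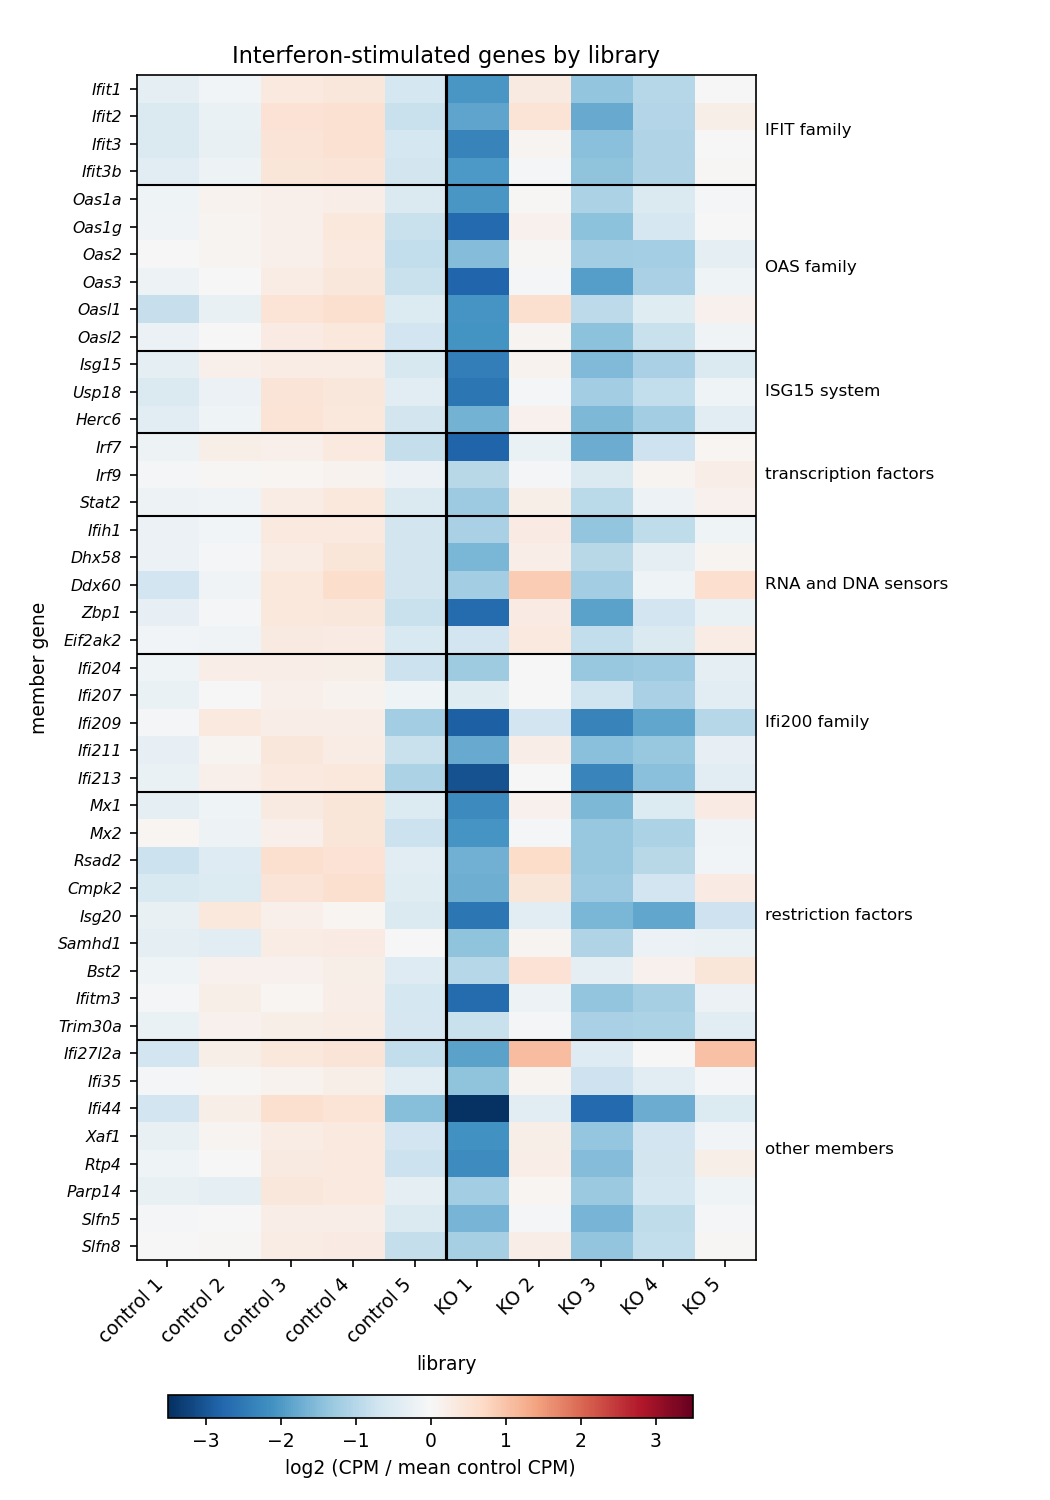
Each row is a member, grouped by role, each column a library, and colour gives the log2 ratio of its CPM to the mean CPM of the 5 controls. The columns of knockouts 1 and 3 are blue down the whole set, those of knockouts 2 and 5 are pale like the controls, and Bst2, Ddx60 and Ifi27l2a are redder in knockouts 2 and 5.

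The same libraries were low for nearly every member. Knockout 1 was below every control in 43 of 43 members, knockout 3 in 41 and knockout 4 in 27, while knockout 5 was below every control in 2 members (Ifi207 and Isg20) and knockout 2 in 0. Knockout 1 was the lowest of all 10 libraries for 35 members, knockout 3 for 7 and knockout 4 for 1. Control 4 was the highest for 26 members and control 3 for 9, and knockout 2 was the highest for 5. The highest knockout library exceeded the lowest by 2.13-fold (Trim30a) to 8.40-fold (Ifi44), with a median of 4.37-fold, and by over 3-fold for 31 members. Among controls the median was 2.10-fold, from 1.26-fold for Irf9 to 4.16-fold for Ifi44, and 1 member exceeded 3-fold. The SD of log2 CPM was larger among knockouts than among controls for 43 of 43 members, which was also the case for 67.0% of all genes. Its median over the members was 0.91 in knockout and 0.44 in control, beside 0.30 and 0.24 over all genes. A difference in spread between the groups was not tested.

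The effectors of the IFIT family bind viral RNA and block its translation, and all 4 had negative estimates, from -0.69 to -0.47. Ifit3, which binds Ifit1 and supports it, was at 169, 201, 324, 343 and 157 CPM in controls 1 to 5 and 47.6, 254, 86.8, 114 and 240.2 CPM in knockouts 1 to 5. Knockouts 2 and 5 lay between the control libraries, and the other 3 below all of them. The log2 fold change was -0.68 (SE 0.43, edgeR adjusted p = 0.471). Ifit1, which recognises RNA caps that lack methylation, followed the same order at 33.4, 38.5, 52.5, 54.5 and 27.1 CPM in controls and 10.01, 51.7, 15.9, 20.5 and 41.2 CPM in knockouts. Ifit3b, the near copy whose upstream bases are shown above, was at 32.9, 37.99, 56.8, 58.1 and 27.4 CPM in controls and 10.7, 40.7, 15.9, 20.6 and 43.9 CPM in knockouts. Reads that fit both copies equally were not counted in the deposited values (multimapping reads are listed as 0), so the separate levels of Ifit3 and Ifit3b are uncertain. Ifit2, also an RNA-binding inhibitor of translation, ran at 106 to 264 CPM in control and 50.7 to 256 CPM in knockout libraries.

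The OAS family makes the messenger molecule that switches on RNase L, which degrades RNA in infected cells. All 6 members had negative estimates and the median was -0.62. Oasl2, a family member with ubiquitin-like domains, tracked the rest of the set more closely than any other member (r = 0.997 with the mean of the others over 10 libraries). It was at 171, 198, 241, 254 and 123 CPM in controls and 46.2, 212, 73.2, 116 and 182 CPM in knockouts (log2 fold change -0.65, SE 0.38, edgeR adjusted p = 0.436). Oas3, a synthetase, was at 104, 119.7, 141, 155 and 68.7 CPM in controls and 17.2, 112, 30.7, 54.1 and 105 CPM in knockouts. Oas2, another synthetase, was at 77.6, 84.5, 89.5, 99.1 and 43.3 CPM in controls and 27.5, 81.7, 34.2, 34.9 and 63.3 CPM in knockouts, and at an unadjusted p = 0.0478 (edgeR) it was the family's nearest to the threshold, with an adjusted p of 0.321. Knockout 1 was the lowest library for all of these. Oas1g varied most within the family, 7.27-fold between the highest and lowest knockout, while Oasl1, which holds back translation of Irf7, had the family's smallest estimate at -0.29.

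Isg15 is an interferon-induced, ubiquitin-like protein that is both attached to other proteins and released from cells. Its level was 109, 152, 162, 161 and 91.8 CPM in controls and 25.3, 148, 46.7, 61.3 and 94.98 CPM in knockouts (log2 fold change -0.85, SE 0.40, edgeR adjusted p = 0.341). Knockout 2 lay inside the control range, knockout 5 lay just above control 5, and the other knockouts were below all controls. Usp18, which removes Isg15 and blocks the receptor, was at 47.98, 59.5, 92.1, 88.98 and 51.2 CPM in controls and 11.7, 66.2, 29.2, 37.3 and 61.7 CPM in knockouts. Herc6, the mouse ligase that attaches Isg15, was at 17.7, 20.6, 31.4, 29.3 and 14.6 CPM in controls and 7.18, 25.4, 7.704, 9.68 and 17.7 CPM in knockouts. The enzyme that adds Isg15 and the one that removes it had r of 0.965 and 0.963 against the other members.

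Among the transcription factors, Irf7, which drives the second wave of interferon production, spanned a wide range while Irf9 and Stat2 did not. Irf7 was at 558, 733, 723, 799.6 and 359 CPM in controls and 91.6, 537, 191, 382 and 659.7 CPM in knockouts, 7.2002-fold between knockouts 1 and 5. Stat2 was at 130.3, 135, 178, 188 and 104 CPM in controls and 60.5, 171, 75.8, 131 and 163 CPM in knockouts. Irf9 was at 98.03, 105, 106, 112 and 89.1 CPM in controls and 52.5, 97.4, 72.1, 108 and 121 CPM in knockouts, where knockout 5 was the highest of all libraries and knockout 1 the lowest. The log2 fold changes were -0.77 for Irf7, -0.29 for Stat2 and -0.18 for Irf9, with standard errors of 0.45, 0.29 and 0.20. Their edgeR adjusted p ran from 0.4404 to 0.697.

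The sensors of nucleic acid varied in how far they followed the set. Zbp1, which senses Z-form nucleic acid, was at 140.1, 168, 224, 228 and 100.4 CPM in controls and 26.7, 209, 47.1, 109 and 146 CPM in knockouts, 7.81-fold from lowest to highest knockout. Ifih1 (MDA5), a sensor of long double-stranded RNA, was at 80.5, 87.1, 118, 118 and 59.7 CPM in controls and 41.8, 112, 35.5, 50.4 and 83.2 CPM in knockouts. Dhx58 (LGP2), which tunes Ifih1, was at 100.2, 112, 139.7, 155 and 73.8 CPM in controls and 38.7, 137, 59.4, 91.2 and 125 CPM in knockouts. Estimates for these 3 were -0.68, -0.52 and -0.36, none past the threshold. Eif2ak2 (PKR), a kinase that stops translation on sensing double-stranded RNA, varied by 2.299-fold among knockouts, and Ddx60, a helicase, had an estimate of 0.030 (SE 0.43).

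The Ifi200 family, whose proteins carry DNA-binding HIN domains and pyrin domains, had a median of -0.73, next to the ISG15 system (-0.75), and the largest difference in score of the role groups, -1.03. Ifi209 (ENSMUSG00000043263.14) had the smallest p of all members. It was at 74.3, 98.8, 92.04, 91.1 and 33.4 CPM in controls and 10.8, 49.4, 15.5, 21.9 and 38.9 CPM in knockouts. Knockouts 1, 3 and 4 were below every control, and knockouts 2 and 5 lay between control 5 and the other controls. The means were 77.95 ± 26.5 CPM in control and 27.3 ± 16.3 CPM in knockout (SD, n = 5 each). Its estimate was -1.51 (SE 0.42, edgeR adjusted p = 0.116). DESeq2 gave it an adjusted p = 0.006598 and limma-voom 0.0489. Ifi213 was at 47.2, 62.1, 69.8, 71.2 and 25.4 CPM in controls and 6.698, 54.2, 11.2, 19.9 and 42.9 CPM in knockouts, 8.09-fold from lowest to highest knockout. Ifi204, which takes part in macrophage differentiation and DNA sensing, was at 209, 275, 276, 269 and 139.5 CPM in controls and 98.2, 231, 92.8, 97.6 and 187 CPM in knockouts. Of the family, Ifi204, Ifi207 and Ifi209 had an unadjusted p under 0.05. Ifi211 had an estimate of -0.72 and Ifi207 of -0.47. These genes are similar copies of each other, so reads shared between copies were not counted and their separate levels are uncertain.

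Restriction factors act directly on viruses, and 8 of the 9 had negative estimates. Isg20 (ENSMUSG00000039236.19), an exonuclease that degrades RNA, had the next smallest p after Ifi209. It was at 22.1, 34.5, 30.1, 27.8 and 18.9 CPM in controls and 4.59, 20.5, 8.74, 7.58 and 16.1 CPM in knockouts, so that knockouts 1, 3, 4 and 5 were below every control and knockout 2 lay just above the lowest, control 5. The log2 fold change was -1.22 (SE 0.36, edgeR adjusted p = 0.137, DESeq2 adjusted p = 0.0188). Ifitm3, a membrane protein that blocks viral fusion, was at 446, 536, 491, 553 and 307 CPM in controls and 71.5, 410.3, 179.6, 209.9 and 401 CPM in knockouts. Samhd1, which depletes nucleotides, was at 385, 373, 572, 591 and 481 CPM in controls and 180.2, 517, 233, 414 and 409 CPM in knockouts. Trim30a, a ubiquitin ligase of the tripartite motif family, came next after Isg20 by p, at 102, 132, 138, 142 and 79.3 CPM in controls and 68.8, 116, 54.4, 54.96 and 90.2 CPM in knockouts (log2 fold change -0.63, SE 0.24, edgeR adjusted p = 0.238). The ratio of its highest to its lowest knockout library, 2.13, was the smallest of all members, whereas by the SD of log2 CPM Ifi207 varied less (0.42 against 0.47). The GTPases Mx1 and Mx2 had estimates of -0.47 and -0.74, and the enzymes Rsad2 and Cmpk2, which together make a chain-terminating nucleotide, had -0.43 and -0.35. Bst2, the tether that holds budding viruses on the cell surface, stood at 247 to 390.2 CPM in control and 169.9 to 479 CPM in knockout libraries, with an estimate of 0.038.

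Of the 8 remaining members, Ifi44, a cytoplasmic protein induced by interferon, varied most. It was at 13.7, 25.02, 31.9, 30.2 and 7.68 CPM in controls and 1.98, 16.6, 3.27, 6.55 and 15.5 CPM in knockouts, and its lowest value, knockout 1, rested on 90 counts, the fewest of any member in any library. The log2 fold change was -1.31 (SE 0.59, edgeR adjusted p = 0.325). Ifi27l2a, a small membrane protein, went the other way in knockouts 2 and 5. It was at 111, 200.3, 227, 241 and 96.1 CPM in controls and 47.7, 367, 128, 174 and 354 CPM in knockouts (log2 fold change 0.29, SE 0.49, edgeR adjusted p = 0.813). Slfn5, a Schlafen family protein, was at 163, 171, 199, 201 and 119 CPM in controls and 55.6, 163, 55.3, 92.6 and 162 CPM in knockouts. The other 5, Ifi35, Xaf1, Rtp4, Parp14 and Slfn8, had estimates from -0.59 to -0.40, with adjusted p from 0.382 to 0.603.

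**Figure D2:**
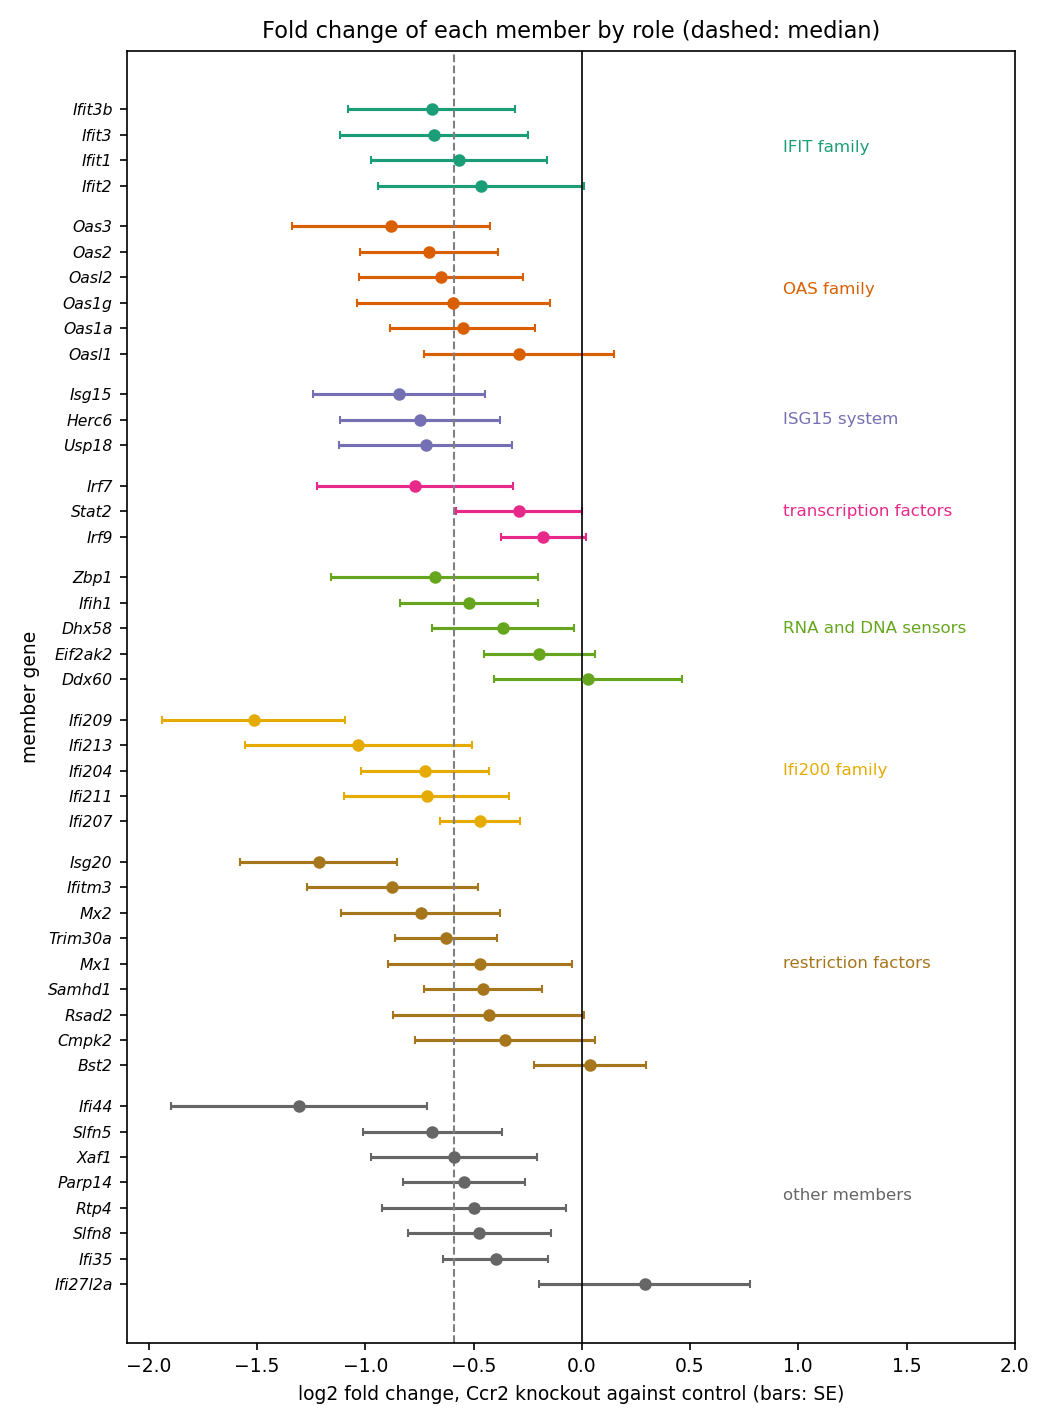
Points give each member's log2 fold change in Ccr2 knockout against control macrophages, bars the standard error, and colours the role. The estimates run from -1.51 for Ifi209 to 0.29 for Ifi27l2a around a median of -0.59, and no member passed the threshold.

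The members moved together across the libraries. A single component held 89.1% of the variance of the standardised log2 CPM of the members over the 10 libraries, and 26.9% when it was computed over all genes tested. After each group's mean was removed the share was 89.4%. Each member's correlation with the mean of the others had a median of r = 0.965 and rho = 0.964, with 42 members above 0.8 and 36 above 0.9. Of the 903 pairs of members, 761 had r above 0.8 and 0 had r below 0. Knockouts 1 and 3 were the libraries farthest from the median score, and over the other 8 libraries the median r was 0.927, with 35 members above 0.8. These values describe 10 libraries that share depth and handling within each sample, and they carry no p. The members that followed the set least by r were Ifi207 (r = 0.6702), Ifi27l2a (0.8003), Bst2 (0.836), Trim30a (0.844), Ddx60 (0.855) and Irf9 (0.861). By rho they were Irf9 (rho = 0.612), Ifi27l2a (0.770), Samhd1 (0.782), Bst2 (0.806) and Isg20 (0.830), with Ifi207 at 0.879 and Trim30a at 0.939. For Ifi27l2a, Bst2 and Ddx60 r was higher within the groups, at 0.9702, 0.962 and 0.961, than across them, whereas for Ifi207 it was 0.506.

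Each member was also set against the rest of the members in the same library. This measure, a member's log2 CPM minus the mean of the other 42, was chosen after the values were seen and is given with no test. Ifi209 was the 1 member that lay lower relative to the others in every knockout than in every control, at -0.12, 0.035, -0.40, -0.46 and -0.94 in controls 1 to 5 and -1.33, -1.15, -1.34, -1.36 and -1.29 in knockouts 1 to 5. In the knockouts it kept a nearly fixed distance from the set although the set itself moved widely. Bst2, Eif2ak2 and Dhx58 lay higher relative to the others in every knockout than in every control. The share of all genes that separate in this way was not counted. The measure takes each member to move as far as the set, so a member that varies less rises where the set is low. Among knockouts Eif2ak2, Bst2 and Dhx58 varied by 2.30-fold, 2.82-fold and 3.55-fold, below the median of 4.37-fold over the members. The part of this in the values was not tested. Dhx58 was at 0.320, 0.225, 0.221, 0.327 and 0.232 in controls and 0.556, 0.358, 0.645, 0.742 and 0.434 in knockouts. The gap between the groups was narrow for Dhx58 (knockout 2 against control 4) and for Eif2ak2 (knockout 2 against control 1). Bst2 was at 1.96, 2.01, 1.70, 1.69 and 2.01 in controls and 2.74, 2.20, 2.87, 2.82 and 2.33 in knockouts. Eif2ak2 was at -0.80, -1.09, -0.95, -1.03 and -0.89 in controls and 0.27, -0.76, -0.47, -0.64 and -0.64 in knockouts. For Isg20 the means were -1.89 in control and -2.54 in knockout, with groups that overlapped. Ifi27l2a had the largest upward shift, 0.81, and its groups overlapped through knockout 1.

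**Figure D3:**
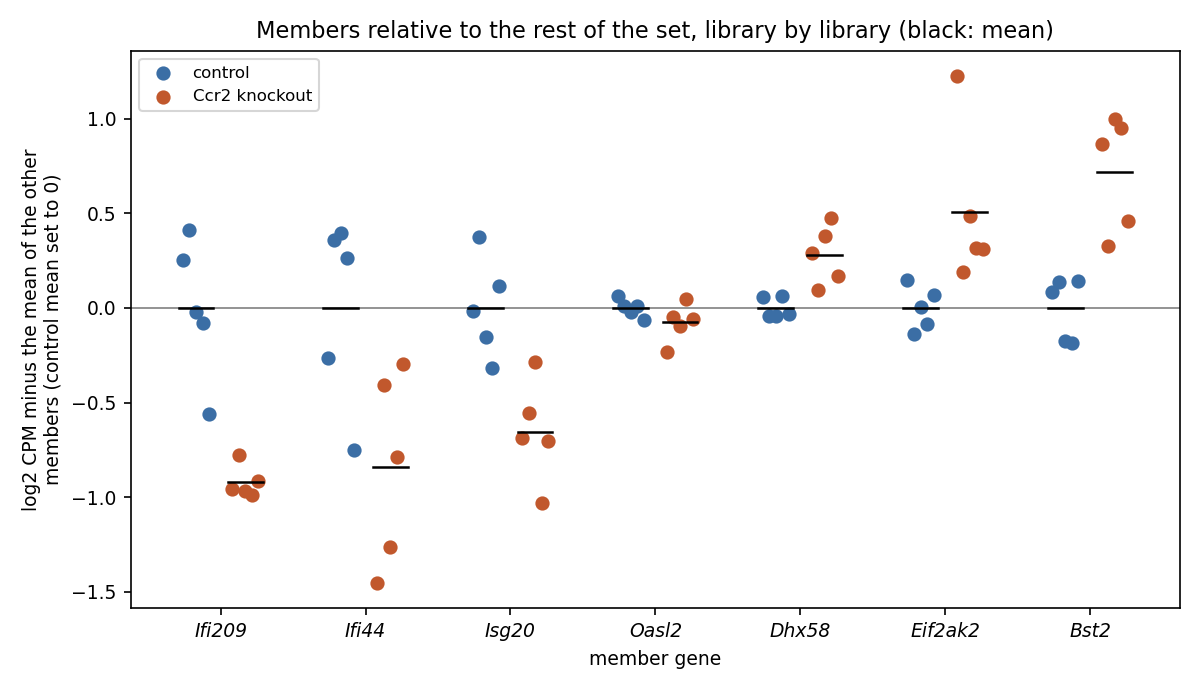
Each point is a library and gives a member's log2 CPM minus the mean of the other 42 members, with the control mean of that member set to 0 and black bars for group means. Ifi209 lies below in every knockout, Dhx58, Eif2ak2 and Bst2 above, and Oasl2 stays near 0.

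Of the ligands, Ifnb1 was the 1 type I interferon of 18 with enough counts to be tested. It was at 0.849, 1.24, 1.0001, 2.06 and 0.243 CPM in controls and 0.483, 8.13, 1.799, 1.91 and 2.14 CPM in knockouts, where knockout 2 (338 counts) stood above all other libraries and knockout 1 (22 counts) was the lowest of the knockouts. The log2 fold change was 1.42 (SE 0.70, edgeR adjusted p = 0.363), and 0.55 without knockout 2. Between the groups its estimate had the opposite sign to that of most members. Across the 10 libraries its level and the member score had r = 0.416, a description over samples that share a library with no p.

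The receptor and its kinases were close to even between the genotypes. Ifnar1 was at 194, 191, 168, 173 and 193 CPM in controls and 229, 172, 211, 197 and 207 CPM in knockouts, and Ifnar2 at 153, 150.3, 157, 162 and 166 CPM in controls and 116, 128, 133, 153 and 154 CPM in knockouts. Their log2 fold changes were 0.15 and -0.20, with standard errors of 0.092 and 0.093 and edgeR adjusted p = 0.468 and 0.331. The libraries of both overlapped between the groups. Jak1 was at 223, 241, 219.9, 212 and 237 CPM in controls and 276, 223, 208, 191 and 199 CPM in knockouts. Tyk2 was at 82.96, 84.8, 111, 125 and 111 CPM in controls and 70.5, 96.8, 84.5, 113 and 99.9 CPM in knockouts. None of these 4 genes passed the threshold.

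Genes that sense nucleic acid and induce interferon gave 0 calls of 15 tested, 14 of them with negative estimates and a median of -0.10. Myd88, the adaptor of most Toll-like receptors, had the smallest p, at 256, 276, 179, 181 and 196 CPM in controls and 183, 144, 135, 164 and 129 CPM in knockouts (log2 fold change -0.53, SE 0.15, edgeR adjusted p = 0.124). Rigi, the sensor of short RNA with an unprocessed end, was at 60.5, 72.3, 94.1, 102 and 64.7 CPM in controls and 32.7, 79.4, 38.4, 52.1 and 77.8 CPM in knockouts. Ikbke, a kinase that activates Irf3 and Irf7, was at 46.5, 52.4, 63.8, 76.8 and 64.2 CPM in controls and 30.3, 60.8, 40.4, 69.1 and 49.7 CPM in knockouts. For Rigi and Ikbke knockout 2 lay within the control range, and for Myd88 the groups overlapped through knockout 1. Of 11 tested brakes on the pathway, 0 passed. The repressor Irf2 was at 90.8, 87.5, 90.4, 84.9 and 69.98 CPM in controls and 64.6, 75.9, 66.5, 66.2 and 72.4 CPM in knockouts. Its partner Irf2bp2 was at 133, 143, 164, 160.1 and 277 CPM in controls and 130.1, 149, 113, 89.02 and 95.9 CPM in knockouts. The receptor kinase Axl was at 807, 772, 855, 921 and 549 CPM in controls and 362, 647, 589, 617 and 669 CPM in knockouts. The groups overlapped for all 3, for Irf2 and Axl through control 5. Their log2 fold changes were -0.29, -0.60 and -0.44.

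A further 49 interferon-stimulated genes outside the listed set were tested, from a list also chosen with earlier results known. Of the 49, 44 had negative estimates, with a median of -0.32. Their mean log2 CPM followed the member score over the libraries (r = 0.993). Of these, 3 fell in Ccr2 knockout macrophages, Ifit1bl1, Slfn4 and Ifitm1, and 0 rose, with the same background of 0.543% lower and 0.870% higher. Ifit1bl1 (ENSMUSG00000079339.8), a relative of Ifit1 in the same gene family, was at 13.6, 21.5, 21.2, 19.4 and 16.96 CPM in controls and 3.23, 6.95, 4.61, 3.84 and 5.61 CPM in knockouts. All 5 knockouts were below all 5 controls, also knockouts 2 and 5, in which Ifit1 and Ifit3 were inside the control range. This separation was shown by 4 of the 49 genes and by 2.02% of all genes. The log2 fold change of Ifit1bl1 was -1.93 (SE 0.22, edgeR adjusted p = 0.00231). Slfn4, a Schlafen gene of monocytes and macrophages, was at 56.5, 116, 89.8, 89.8 and 61.97 CPM in controls and 11.7, 28.3, 9.71, 8.51 and 22.4 CPM in knockouts, again with no overlap (log2 fold change -2.36, SE 0.36, edgeR adjusted p = 0.0126). With controls 1 and 2, and 3 and 4, each summed to 1 library, Slfn4 had an adjusted p of 0.0812. Ifitm1, a relative of Ifitm3, was at 99.1, 122, 22.6, 24.6 and 81.5 CPM in controls and 17.7, 7.65, 17.97, 7.51 and 4.62 CPM in knockouts (log2 fold change -2.66, SE 0.56, edgeR adjusted p = 0.0463). It lost its call in 8 of the 10 fits that left out 1 library, where the adjusted p reached 0.122, with limma-voom, without composition factors, with robust dispersions, with the replicate block (0.164) and with the control pairs summed (0.151). Members of the same families did not pass, with adjusted p = 0.531 for Ifit1, 0.338 for Slfn5 and 0.325 for Ifitm3, and the difference between relatives was not tested.

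**Figure D4:**
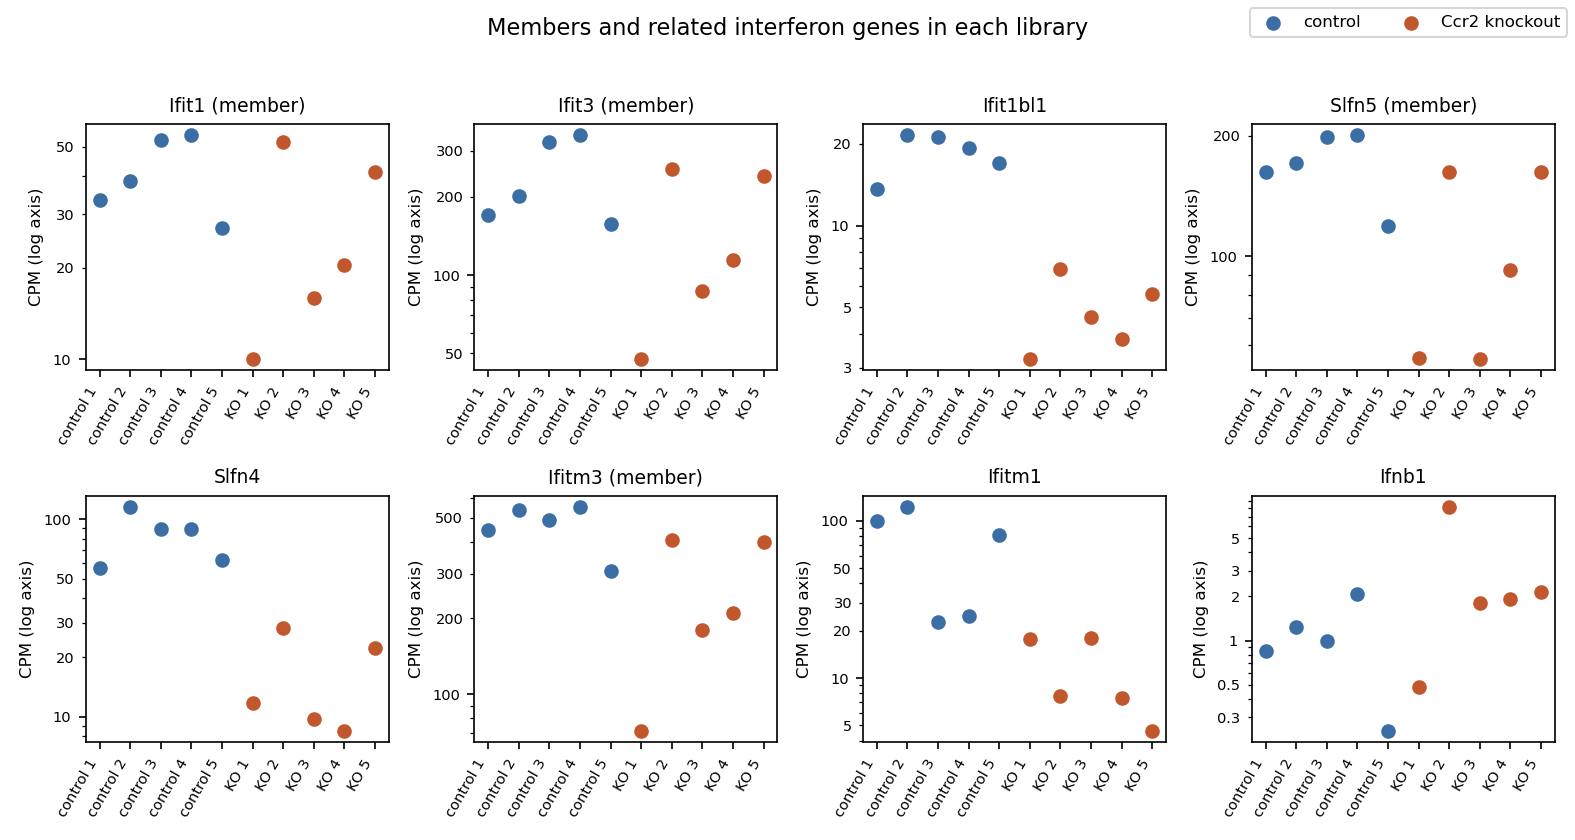
CPM on a log axis in each library for 4 members and for 4 related genes outside the set. Ifit1bl1, Slfn4 and Ifitm1 are lower in all 5 knockouts than in all 5 controls, whereas knockouts 2 and 5 lie within the control range for Ifit1, Ifit3, Slfn5 and Ifitm3, and Ifnb1 peaks in knockout 2.

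Genes better known for their response to interferon gamma, the T and NK cell cytokine, gave 0 calls of 20 tested and a median of -0.16. Their mean log2 CPM and the member score had r = 0.914 over the 10 libraries, and it was highest in knockout 2 (6.13) and lowest in knockout 1 (3.74). Ciita, the master regulator of MHC class II genes, was at 38.4, 40.96, 86.5, 83.7 and 39.8 CPM in controls and 4.94, 37.95, 10.49, 56.3 and 26.5 CPM in knockouts (log2 fold change -1.09, SE 0.56). Cxcl9, a chemokine for T cells, was at 59.7, 46.9, 54.4, 44.6 and 31.6 CPM in controls and 38.8, 126, 32.8, 106 and 65.02 CPM in knockouts (log2 fold change 0.64). Tgtp1, a GTPase, was at 0.876, 0.642, 1.69, 1.67 and 0.777 CPM in controls and 0.264, 1.396, 0.177, 0.318 and 0.6003 CPM in knockouts, with an estimate of -1.03 that was -1.72 without knockout 2. Knockout 2 was the highest knockout for Cxcl9 and Tgtp1, and knockout 4 for Ciita. Ifng itself was at 1.83, 2.17, 0.429, 0.603 and 0.5101 CPM in controls and 0.0878, 1.54, 0.304, 0.0244 and 0.0522 CPM in knockouts, with an estimate of -1.46 that was -3.20 without knockout 2. Ifng was near 0 in knockouts 1, 3, 4 and 5, so the estimate without knockout 2 rests on few reads. Its receptor chain Ifngr1 was at 283, 293, 238, 249 and 335 CPM in controls and 218, 178, 284, 241 and 255 CPM in knockouts. The other chain, Ifngr2, was at 184, 180.0, 166, 160.2 and 160.0 CPM in controls and 181, 156, 181, 197 and 183 CPM in knockouts. Their estimates were -0.25 and 0.079. The kinase Jak2 was at 59.7, 63.8, 52.7, 51.6 and 50.04 CPM in controls and 46.03, 46.3, 27.5, 27.5 and 40.1 CPM in knockouts (log2 fold change -0.57, edgeR adjusted p = 0.133). It did not pass the threshold. All 5 knockouts were below all 5 controls, a separation that 2.02% of all genes showed.

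The mean log2 CPM of the classical monocyte markers was lower in every knockout than in every control library, and the member score in some. Of 11 tested markers 6 fell, among them Ccr2, whose fall the genotype fixes, while F13a1 (0.56) and Lyz1 (0.22) had positive estimates. The mean was 5.71 to 6.33 in control and 2.37 to 3.84 in knockout libraries, whereas the member score was below every control in 3 of the 5 knockouts. Without Ccr2, a choice made after seeing the data, 5 of 10 markers fell and the mean was 5.56 to 6.21 in control and 2.42 to 4.01 in knockout libraries. The summed level of the 11 markers, most of it F13a1 in the knockouts, overlapped between the groups, at 1568 to 3359 CPM in control and 971 to 2259 CPM in knockout libraries. Knockout 4 had the lowest monocyte score and knockout 3 the highest of the knockouts. The 12 macrophage markers had mean log2 CPM of 10.53 to 10.75 in control and 10.41 to 10.63 in knockout libraries, and 1 of them, Cd68, rose. The part of either list in the members' values was not tested.

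**Figure D5:**
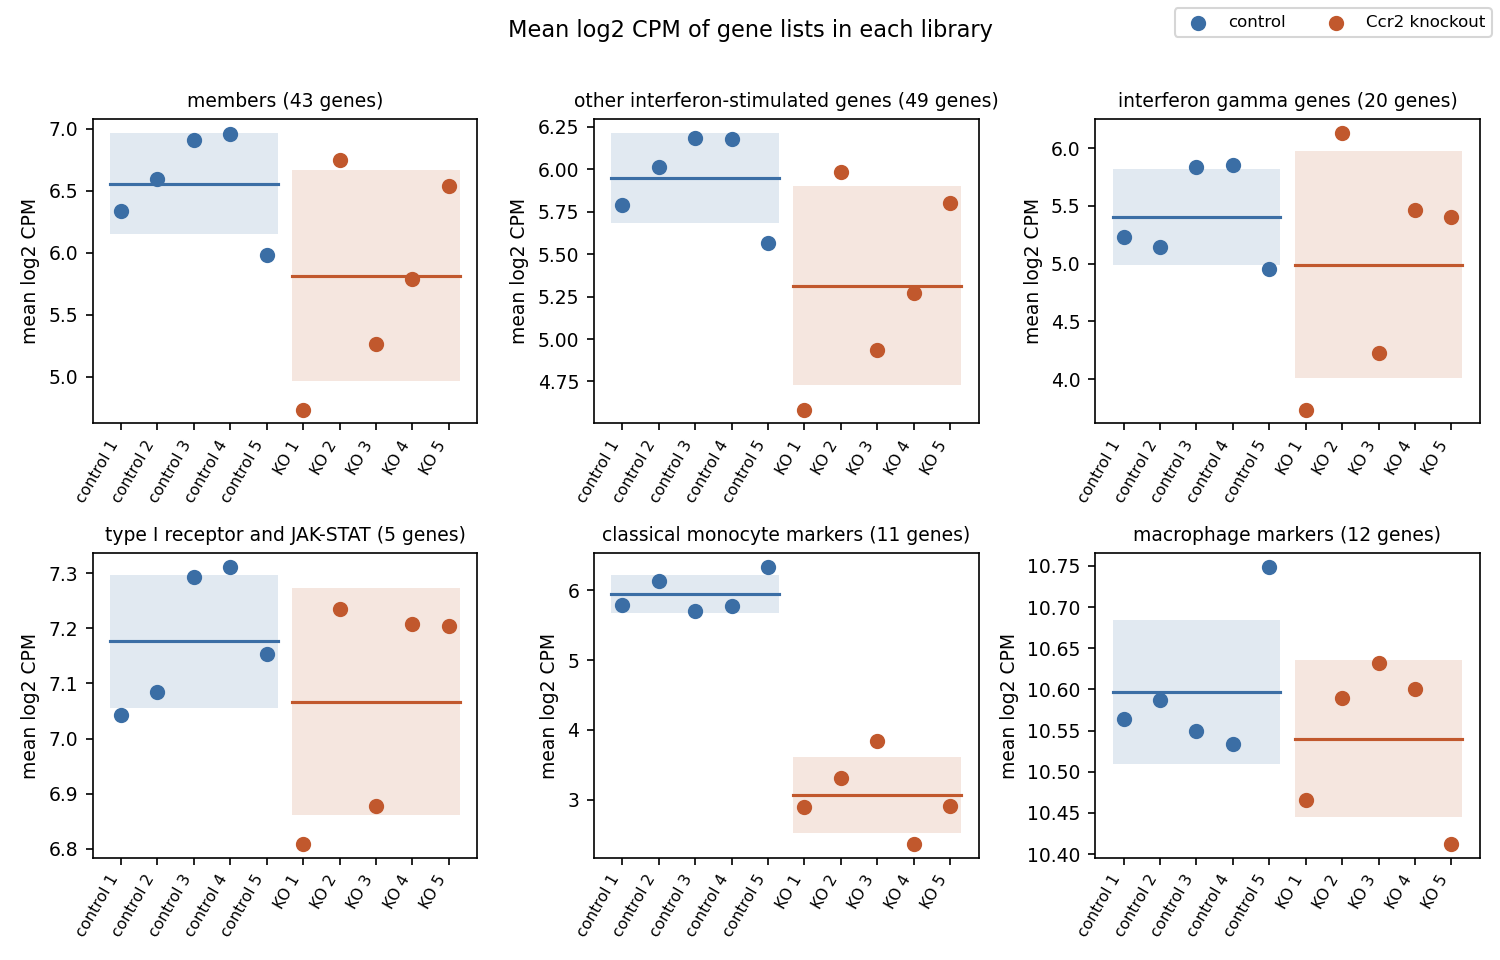
Each panel gives the mean log2 CPM of a gene list in every library, with lines for group means and bands for 1 SD. Members, other interferon-stimulated genes and interferon gamma genes share a pattern with knockouts 1 and 3 lowest, whereas the mean of the classical monocyte markers is lower in all 5 knockouts (2.37 to 3.84 against 5.71 to 6.33).

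Markers of plasmacytoid dendritic cells, a rich source of interferon, passed the threshold in 0 of 7 tested. The 10 listed summed to 691 to 820 CPM in control and 480 to 915 CPM in knockout libraries. Irf8 (mean 340 CPM over all libraries), Lair1 (331 CPM) and Tcf4 (77.9 CPM) were the most abundant. Tcf4 was at 79.3 to 90.4 CPM in control and 55.3 to 78.2 CPM in knockout libraries (edgeR adjusted p = 0.200). Such a separation was shown by 2.02% of all genes. The receptor genes Siglech and Ccr9 were near 0. Siglech was at 0.0286 to 1.25 CPM in control and 0.1203 to 0.783 CPM in knockout libraries, and Ccr9 at 0 to 0.267 and 0 to 0.0963 CPM. The 12 T and NK cell markers summed to 29.8 to 115 CPM in control and 2.64 to 98.7 CPM in knockout libraries, with 0 of 10 tested past the threshold. Knockouts 2 and 5, which had the highest member scores of their group, were the highest and the lowest of the knockouts in that sum. Conventional dendritic cell markers summed to 29.1 to 62.1 CPM in control and 17.4 to 50.4 CPM in knockout libraries, and 1 of 8, Dpp4, fell. Neutrophil markers summed to 162 to 550 CPM and 115 to 213 CPM with 0 of 8 past the threshold, and B cell markers to 149 to 379 CPM and 67.7 to 540 CPM with 0 of 3. Fibroblast markers were highest in knockout 3, at 3605 CPM, where the members were low, and ran from 316 to 3605 CPM over the knockouts. Over the 10 libraries the member score had r = 0.469 with the monocyte score, 0.432 with the T and NK score and 0.585 with the plasmacytoid dendritic cell score. It had r = 0.627 with the conventional dendritic cell score, 0.744 with the B cell score and -0.06 with the macrophage score, all with no p. The part of these cells in the members' values was not tested.

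Outside the set, the 10 genes whose log2 CPM was most like the member score over the 10 libraries had r from 0.979 to 0.999. In order they were H2-T24, Phf11b, Ifi206, Ifi203, Epsti1, Phf11a, Ifi208, Sp110, Trim34a and Cysltr2, of which 5 were in the list of other interferon-stimulated genes. Of 10842 genes compared, 113 had r above 0.9. H2-T24 averaged 44.7 ± 12.7 CPM in controls and 28.9 ± 15.5 CPM in knockouts (SD, n = 5 each), a log2 difference of -0.63 with an edgeR adjusted p = 0.428. This likeness is a description over 10 libraries that share depth and handling, with no p.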

How the data were processed

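Bulk RNA-seq counts came from 10 libraries, 5 control (Ccr2RFP/+) and 5 Ccr2 knockout (Ccr2RFP/RFP). The titles call the first group WT, and the genotype label was followed. Each deposited file held raw read counts by gene, made with STAR on GRCm39 per the submitters' processing notes, with version and annotation not given in the sources used here. Reverse-strand counts were used, and held 96.2% to 96.5% of strand-assigned counts in each library. STAR's summary rows were left out. A combined table was left aside, as its 10 columns could not be matched to samples by name. Symbols matched 52083 of 55359 identifiers, Rigi as Ddx58 and Sting1 as Tmem173.

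The test across all genes was that of edgeR 4.0.16 under R 4.3.3 (TMM, filterByExpr with a minimum count of 10, quasi-likelihood F-test, Benjamini-Hochberg adjustment over all tested genes, threshold 0.05). The standard error is the size of the log2 fold change divided by the square root of F. CPM uses TMM-scaled library sizes, and scores are means of log2 CPM with a prior count of 2. Alternatives used DESeq2 1.42.0, limma 3.58.1, other size factors, filters and scores, unstranded counts, robust dispersions, the title number as a block, each library left out, and the closest control pairs summed. The gene test was tested on simulated data. Figures were drawn with matplotlib 3.10.9. Library totals ran from 34639808 to 43360206 counts, and the members' lowest count was 90.

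The members and lists were chosen with earlier results of these data known. Values in every library are given, in each role group, for the member with the highest mean CPM and the 2 others with the largest log2 fold change (mean of at least 2 CPM), and for the 3 members with the smallest p. In each related list they are given for up to 3 genes with the smallest p, for called genes, for lists of 5 or fewer, and for Ifnb1, Ifnar1, Ifnar2 and Ccr2, except a gene not reported here. Where another value is named, it was chosen after its values were seen. So was the comparison of each member with the rest of the set.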

Additional observations from a re-analysis of the deposited data

Results flagged for a closer look

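In 146 groups of 5 libraries, made of all members, the other named genes and list scores, 5 held a library far from the other 4 by Dixon's criterion, which chance alone meets in about 1 in 20 groups. Ifnb1 was at 8.13 CPM in knockout 2, where the other knockouts ran from 0.483 to 2.14 CPM. Ifng was at 1.54 CPM in knockout 2, where the others ran from 0.0244 to 0.304 CPM. Axl was at 362 CPM in knockout 1, where the others ran from 589 to 669 CPM. Irf2 was at 70.0 CPM in control 5, where the other controls ran from 84.9 to 90.8 CPM. Irf2bp2 was at 277 CPM in control 5, where the others ran from 133 to 164 CPM. None of these is one of the 43 members, no member was so placed, and the cause was not tested.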

How the results depend on the processing

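The 0 members past the threshold became 2 with DESeq2 (Ifi209 and Isg20) and 1 with limma-voom (Ifi209), and stayed 0 in the other alternatives run. The 203 genes past it became 820 with DESeq2, 446 with limma-voom, 29 with the close control pairs summed and 62 to 267 with 1 library left out. The 3 related interferon genes became 7 with DESeq2 and 1 with the pairs summed. The score difference of -0.74 ranged from -0.96 (without knockout 2) to -0.47 (without knockout 1). With 1 library left out the log2 fold change of Ddx60 ranged from -0.29 to 0.23, of Bst2 from -0.095 to 0.21 and of Jak1 from -0.14 to 0.015, so none of these has a settled sign. Over the named genes and their alternatives, 948 of 978 values kept their direction and their side of the threshold. Few of these genes passed it in the main fit and the fits share most libraries, so this total is a weak check. The cause of these changes was not tested.

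Libraries that share a title number did not consistently deviate together (r of their deviations from the group means 0.344, 0.0802, -0.529, 0.180 and -0.224). Control 1 was most alike knockout 1 in these deviations, and controls 2 to 5 were each most alike a knockout of another number. These values cannot exclude that samples were collected in pairs, which the labels do not state. With the replicate block 55 genes and 0 members passed the threshold, and the log2 fold change of Ddx60 was -0.13 and that of Bst2 -0.038. The score difference stays at -0.74 by arithmetic when equal groups are blocked by number, so it is no check.

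All members had at least 90 counts in every library, so that the spread between libraries and not counting limits these comparisons. Differences between single knockout libraries have no replicate.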
